A study of Mus musculus with 2 samples.

Results

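Natural killer (NK)-like cells that carried transcripts of major histocompatibility complex (MHC) class II genes were examined in tumors of 2 genotypes. They are called NK-like for their NK receptor transcripts, and a few also held many B cell or macrophage transcripts, as given below. They were picked from the counts. Barcodes had to show 500 or more genes and no more than 10% of UMIs from mitochondrial genes. A member then had at least 2 UMIs summed over H2-Aa, H2-Ab1 and H2-Eb1, at least 1 UMI of the NK receptor genes Ncr1 or Klrb1c, under 2 UMIs of Cd3d and Cd3e together, and no UMI of Tmem176a or Tmem176b. A UMI, or unique molecular identifier, marks 1 captured transcript. The rule found 112 of 6622 cells, 22 of 3067 in the KO library and 90 of 3555 in the WT library. The UMIs of the 3 class II genes chose the members, so their levels are given as a description.

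The tumors grew from RMA-S cells, a mouse lymphoma line, placed under the skin 2 weeks before collection. Sorted cells that lacked CD3ε and carried NK1.1 went into 10x Chromium 3′ libraries, 1 from mice with Hif1a deleted in NK cells (KO, labelled NK-Hif1a-/-) and 1 from wild-type mice (WT). The labels used here give neither the ages of the mice, the line that drives the deletion, nor how many mice or tumors made each library. With 1 library per genotype there is no test. Every difference describes these 2 libraries, and intervals are 95% and cover counting error only. A summed level alone does not tell fewer UMIs per cell from fewer cells that hold them.

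MHC class II molecules are pairs of an α and a β chain that present peptides from engulfed protein to CD4 T cells. Dendritic cells, macrophages and B cells carry them constantly. Cd74, the invariant chain, guides the pair to the endosome, where H2-DM helps load the peptide and H2-O restrains H2-DM. NK cells are not usually counted among them, so the question was whether genes of dendritic cells or macrophages came along with the class II transcripts.

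The 3 chosen genes lie in the MHC region of chromosome 17 in the GENCODE M21 annotation of GRCm38, the build also named mm10. H2-Aa, the α chain of the I-A molecule, spans chr17:34282744-34287823 on the minus strand. H2-Ab1, the I-A β chain, spans chr17:34257689-34269419 on the plus strand, and H2-Eb1, the I-E β chain, spans chr17:34305867-34316674 on the plus strand. Promoters of class II genes share a set of short elements, among them the Y box, which holds the letters GATTGG or their reverse complement CCAATC and is bound by the factor NF-Y. The 120 bases before the start of 3 class II genes are shown as examples of genes whose transcripts some members carried. They come from the RefSeq promoter table (GRCm38.p6), 5′ to 3′ on each gene's strand, with the Y box letters in capitals.
H2-Aa, chr17:34287824-34287943, minus strand: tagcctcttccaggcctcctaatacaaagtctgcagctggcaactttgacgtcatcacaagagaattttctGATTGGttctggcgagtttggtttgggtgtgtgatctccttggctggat
H2-Eb1, chr17:34305747-34305866, plus strand: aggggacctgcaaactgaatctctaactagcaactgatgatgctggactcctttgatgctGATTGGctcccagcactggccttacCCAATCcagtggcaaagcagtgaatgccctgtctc
H2-DMb1, chr17:34153071-34153190, plus strand: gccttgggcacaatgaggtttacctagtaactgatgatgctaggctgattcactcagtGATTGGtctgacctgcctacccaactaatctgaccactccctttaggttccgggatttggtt
The GATTGG began 49 bases upstream of the start of H2-Aa, 60 upstream of H2-Eb1 and 62 upstream of H2-DMb1, a chain of the peptide loader H2-DM. Of 8 class II genes looked up, 7 had a window in the table, with 8 windows in all. H2-Ab1 had none, so its bases are not shown. The letters stood on either strand in the 250 bases upstream in 7 of the 8 windows, and in 14.6% of all 32851 windows of that length. A match is a run of letters and not a measured site. Levels are in CPM, UMIs per 1e6 UMIs of the summed cells. Summed transcripts of 7 factors that bind class II promoters stood at 234 CPM in KO members and 198 CPM in KO class II-negative NK-like cells, and at 180 and 183 CPM in the WT library. Nfyb, a subunit of NF-Y, was at 50.1 CPM in KO members and 54.2 CPM in KO class II-negative cells, and at 54.2 and 56.6 CPM in the WT library. Ciita, the coactivator that switches the class II genes on, had 2 UMIs in 1 KO member and 0 UMIs in the 90 WT members, where a count of 0 allows a level of up to 3.25 CPM (3 UMIs over all WT members).

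Both libraries had members, and the share of cells that were members was lower in the KO library. It was 0.717% (exact binomial interval 0.450% to 1.08%) in the KO library and 2.53% (2.04% to 3.10%) in the WT library. The WT cells were deeper, and the share moved with depth within each library. Of barcodes meeting the rule but for class II, 0.441% were members under 5000 UMIs, 1.55% from 5000 to under 10000 and 7.41% at 10000 or more in the KO library, and 1.42%, 3.13% and 16.1% in the WT library. After every cell was thinned to 2500 UMIs, which left out 418 KO and 92 WT cells, 0.529% (14 of 2649) and 1.01% (35 of 3463) of cells met the rule. The interval of the KO library, 0.289% to 0.885%, and that of the WT library, 0.705% to 1.40%, then overlapped. Members held a median of 5460.5 UMIs (3020 to 26172) in the KO library and 6435 UMIs (2778 to 52557) in the WT library. Class II-negative NK-like cells, which met the rest of the rule with no class II UMI and number 2518 KO and 2758 WT, held 3709.5 and 4314.5.

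A share of this size also occurred in barcodes with Cd3 transcripts. Of barcodes with 2 or more Cd3d and Cd3e UMIs, which mark T cells, 3.19% (3 of 94, interval 0.663% to 9.05%) in the KO library and 4.15% (8 of 193, 1.81% to 8.0%) in the WT library had 2 or more class II UMIs. Their median depths were 5000 and 5353 UMIs. The corresponding shares of NK-like barcodes were 0.822% (0.516% to 1.24%) and 2.92% (2.35% to 3.57%), at the lower median depths of 3752 and 4389, and the intervals overlapped. After thinning the shares were 1.14% (0.0288% to 6.17%) and 1.57% (0.325% to 4.52%) of Cd3 transcript barcodes, against 0.603% (0.330% to 1.01%) and 1.27% (0.897% to 1.73%) of NK-like barcodes. The share with 2 or more class II UMIs was thus not above that of the Cd3 transcript barcodes, and no expression is read from the share alone. The groups were not chosen alike, because the Cd3 transcript barcodes had no condition on Tmem176 or NK receptor UMIs. They are not a group known to lack class II transcripts. High counts were rare in both kinds of barcode. Of Cd3 transcript barcodes 0 of 94 in the KO library, which allows up to 3.19%, and 3 of 193 (1.55%) in the WT library had 10 or more class II UMIs, against 0.262% and 0.324% of NK-like barcodes. The highest was 2 and 19 UMIs in Cd3 transcript barcodes and 99 and 59 in members. Of NK receptor barcodes with Tmem176a or Tmem176b UMIs, which the rule leaves out, 14.7% (21 of 143) and 14.6% (26 of 178) had 2 or more class II UMIs. The 19 cell barcode sequences found in both libraries include no member.

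Class II UMIs were spread very unevenly over the members. In the KO library the lowest was 2, the median 2.5 and the highest 99 UMIs, and 7 of 22 members with 10 or more held 90.0% of all 351. In the WT library the lowest was 2, the median 3 and the highest 59 UMIs, and 10 of 90 members with 10 or more held 48.8% of all 510. At the threshold, 11 KO and 35 WT members had exactly 2 UMIs, and 136 KO and 239 WT cells just outside it had 1. No KO member had 5 to 9. H2-Aa made up 44.2% of the class II UMIs of KO members and 28.6% of those of WT members. All 3 genes were present in 7 KO and 25 WT members, and a single one of them in 6 and 28.

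Cd74, the invariant chain, was not used by the rule, and ranked first of the genes compared by the lower of its ratios in the 2 libraries. KO members held 334 Cd74 UMIs in 14 of 22 cells, or 1857 CPM (exact Poisson interval 1664 to 2068), against 12.7 CPM in class II-negative cells. WT members held 447 in 52 of 90 cells, or 485 CPM (441 to 532), against 19.8 CPM. The log2 ratio of members to class II-negative cells, with 10 CPM added to both, was 6.36 in the KO library and 4.05 in the WT library. Barcodes with 2 or more class II UMIs that the rule left out for Tmem176 UMIs had higher levels of Cd74, 2124 CPM in the KO library and 2816 CPM in the WT library. After thinning, 50% (28.2% to 71.8%) of the KO and 41.1% (30.8% to 52.0%) of WT members carried a Cd74 UMI, against 2.67% and 4.33% of class II-negative cells and 5.68% and 9.42% of the Cd3 transcript barcodes.

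Cd74 was more frequent in members with many class II UMIs. Among members with exactly 2 class II UMIs, 45.5% (5 of 11) in the KO library and 37.1% (13 of 35) in the WT library had Cd74, at 174 and 183 CPM. Cells with 1 class II UMI had 57.9 and 72.8 CPM. From 10 class II UMIs up, 7 of 7 KO and 9 of 10 WT members had it, at 4178 and 1460 CPM. The rise was not graded: members with 3 to 4 class II UMIs were at 86.1 CPM in the KO library and 133 CPM in the WT library, below those with exactly 2, and WT members with 5 to 9 were at 1486 CPM, near those with 10 or more.

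**Figure D1:**
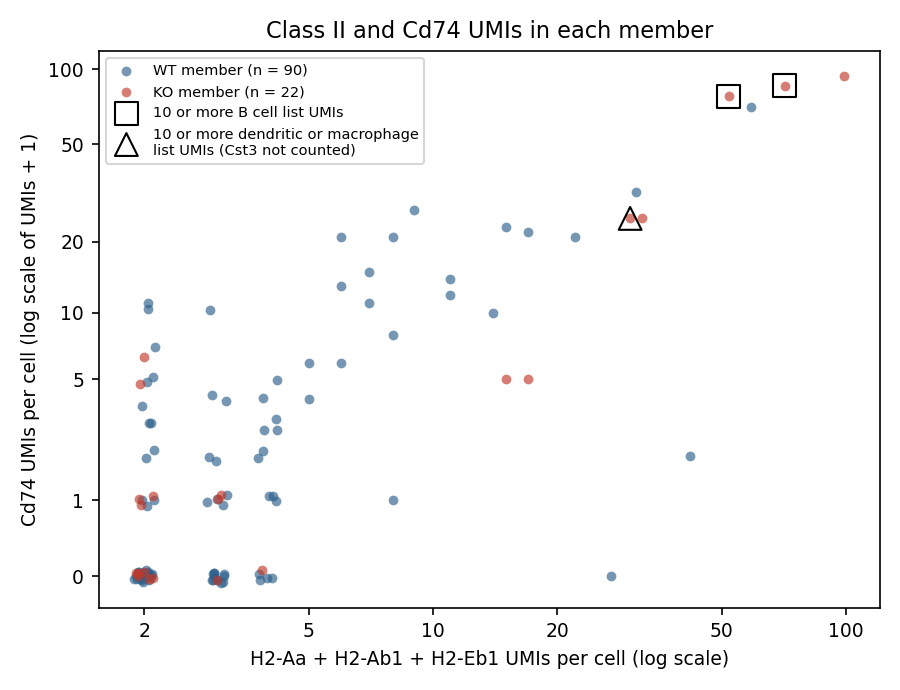
Each point is 1 member, with the summed H2-Aa, H2-Ab1 and H2-Eb1 UMIs on the x axis and Cd74 UMIs on the y axis, both on log scales; points with under 5 class II UMIs are shifted slightly at random so that they can be seen. Most members sit at 2 to 4 class II UMIs, and 1 WT member with 27 class II UMIs has no Cd74.

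The members with the most class II UMIs did not look alike. KO member 1 had 99 class II UMIs and 94 of Cd74, with 214 UMIs of the cell cycle list, among them 66 of Stmn1, a tubulin binder, and 23 of Top2a, the DNA topoisomerase of dividing cells, and 26172 UMIs in all. KO member 4 had 32 class II UMIs with 474 of Spp1, which encodes osteopontin, and 534 of Gzma, a granzyme of NK granules. WT member 1 had 59 class II UMIs and 71 of Cd74, with 2 of the interleukin 7 receptor gene Il7r. WT member 2 had 42 class II UMIs, none of them H2-Aa, only 2 of Cd74, and 295 of Gzmc, another granzyme. WT member 4 had 27, again with no H2-Aa and no Cd74, with 303 of Gzmc and 205 of the cell cycle list. Of the 17 members with 10 or more class II UMIs, 6 had 10 or more cell cycle UMIs, 5 had 10 or more Gzmc UMIs and 4, all WT, had Il7r.

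Dendritic cell genes came along as single UMIs at most. Of the 14 genes of the dendritic list, 9 were at 0 UMIs in all 112 members: Flt3, the growth factor receptor of dendritic precursors, Clec9a and Xcr1 of cross-presenting dendritic cells, Cd209a and Clec10a of the other conventional subset, and Ccl22, Fscn1, Ffar2 and Cacnb3. For each, 0 of 112 members allows a share with a UMI of up to 2.68%. No member had more than 1 UMI of the list, and 100 of 112 had none. The summed level was 27.8 CPM (5 UMIs in 5 cells) in KO members against 14.3 CPM in class II-negative cells, and 7.59 CPM (7 UMIs in 7 cells) against 11.3 CPM in the WT library. After thinning, 18.2% (5.19% to 40.3%) of KO members had a UMI of the list against 3.72% of class II-negative cells, and 1.11% (0.0281% to 6.04%) of WT members against 2.47%. The UMIs were those of Zbtb46, a transcription factor of conventional dendritic cells, Naaa, Wdfy4, Mgl2 and Ccl17, each in at most 4 WT or 2 KO members.

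Macrophage genes came along in number in 1 KO member and as a few UMIs in others. The 20 genes of the list were led by Cst3, a protease inhibitor gene that was broadly present in NK-like cells here, at 122 CPM in KO and 147 CPM in WT class II-negative cells. Without Cst3, 74 of 112 members had no UMI of the dendritic and macrophage lists, 29 had 1, 8 had 2 to 9 and 1 had 10 or more. That one, KO member 5, held 43 such UMIs over 12 genes, with 20 of Lyz2, the lysozyme of myeloid cells, and 6 of Apoe. It also had 22 UMIs of Il1b, 13 of Tgfbi and 7 of Chil3, genes of monocytes outside the lists named after the values were seen. That cell had 30 class II UMIs, 25 of Cd74, 2 NK receptor UMIs and 3020 UMIs in all. KO member 3 held 5 such UMIs over 4 genes, and KO member 6 held 4 over 4 genes, with 1 each of Lyz2, Apoe and the complement gene C1qb. The 4 WT members with 2 such genes had at most 3 UMIs. Before thinning, Lyz2 was in 5 of 22 KO members (22.7%) against 1.75% of KO class II-negative cells, and in 3 of 90 WT members (3.33%) against 0.508%. The complement gene C1qc, Ms4a7, the Fc receptor gene Fcgr1, Clec4n and Trem2 were at 0 in every member.

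That cell held 43 of the 59 UMIs of these lists in KO members. KO members were at 328 CPM (250 to 423) against 57.9 CPM in class II-negative cells, and WT members at 39.0 CPM (27.3 to 54.0) against 40.1 CPM. After thinning, 31.8% (13.9% to 54.9%) of KO members had such a UMI against 13.1% of class II-negative cells and 7.95% of Cd3 transcript barcodes. In the WT library the shares were 7.78% (3.18% to 15.4%), 9.15% and 8.38%. The 7 KO barcodes that had class II UMIs but no NK receptor UMI stood at 5512 CPM, of 150 UMIs, 87 of which lay in 1 barcode. Where members with any dendritic or macrophage UMI other than Cst3 were left out, an alternative chosen after the values were seen, 12 KO and 62 WT members remained, with a Cd74 log2 ratio of 5.61 and 4.08.

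**Figure D2:**
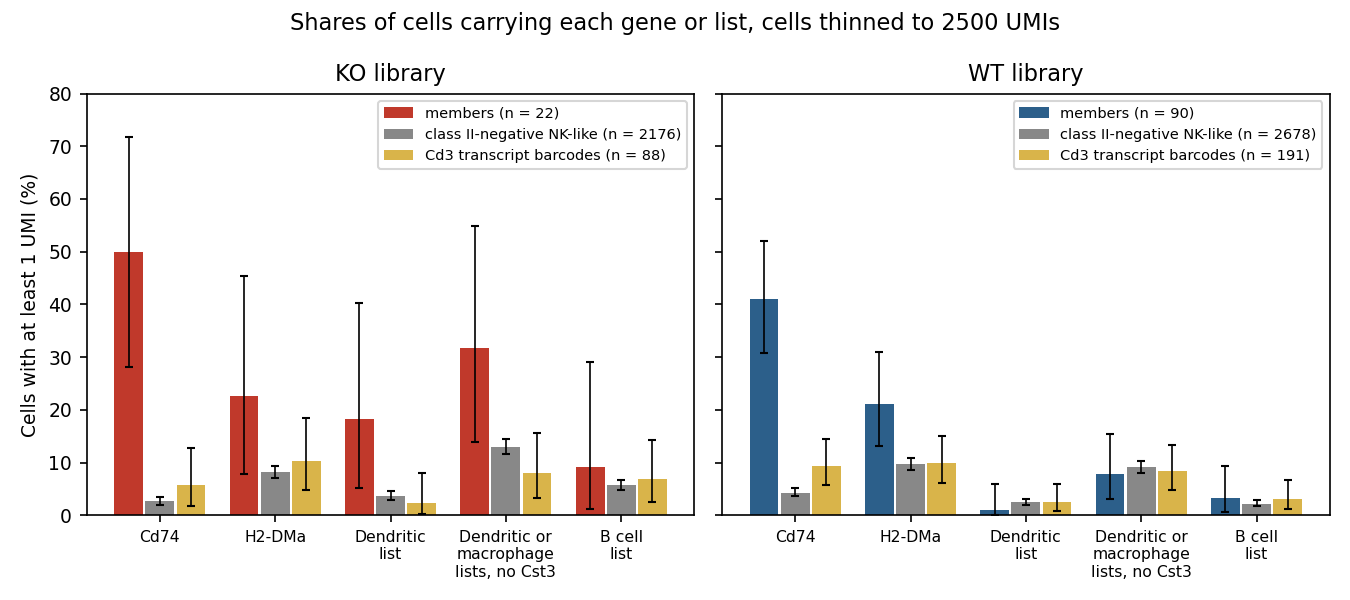
Bars are the percentage of cells with at least 1 UMI of each gene or list after thinning every cell to 2500 UMIs, with exact 95% binomial intervals, for members, class II-negative NK-like cells and barcodes with 2 or more Cd3d and Cd3e UMIs. Cd74 and H2-DMa stand above the class II-negative cells in both libraries, while the dendritic and macrophage lists without Cst3 do so in the KO library (31.8% against 13.1%) and not in the WT library (7.78% against 9.15%).

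B cell genes came along in 2 KO members. KO member 2, with 71 class II UMIs, held 57 UMIs of the B cell list, with 10 of Cd79a and 19 of Cd79b, the signalling chains of the B cell receptor, and 12 of Ms4a1, which encodes CD20. KO member 3, with 52 class II UMIs, held 31, with 5 of Cd79a, 9 of Cd79b and 6 of Fcer2a, which encodes CD23. They had 3 and 4 NK receptor UMIs. No WT member had more than 2 B cell UMIs, and 99 of 112 members had none. The list stood at 506 CPM in KO members against 23.6 in class II-negative cells, and at 11.9 CPM against 8.67 CPM in the WT library. Of the 17 members with 10 or more class II UMIs, 14 had under 10 B cell UMIs and under 10 dendritic and macrophage UMIs, Cst3 not counted. Without the 3 KO members above that limit the KO Cd74 log2 ratio was 5.31. The part of depth and of other lineages' transcripts in the remaining levels was not tested.

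Of the 12 other class II genes on the list, 3 had the 50 member UMIs needed for the comparison below. Cd74 was past 2-fold higher in both libraries, and H2-DMa and Ctss in the KO library alone. The levels of the rest are given with no call. H2-DMa, the α chain of the peptide loader, was at 139 CPM in KO members against 35.2, and at 65.1 CPM in WT members against 40.1. H2-DMb1 was at 50.1 against 9.88 CPM in the KO library and 29.3 against 9.88 CPM in the WT library. Ifi30, a reductase of endosomes that opens disulfide bonds of antigens, was at 61.2 against 7.68 and 39.0 against 9.52 CPM. H2-Oa, a chain of the H2-DM inhibitor, was at 27.8 against 11.1 and 47.7 against 14.3 CPM. Ctss, the protease that trims Cd74, was at 178 against 41.4 CPM in the KO library, 44% of it in the macrophage-gene cell, and 58.6 against 50.1 CPM in the WT library. H2-DMb2 had 9 UMIs in 3 KO members and 3 in 1 WT member. Lgmn, an endosomal protease, had 6 UMIs in 3 KO members and 0 in WT members.

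Across genes, members were compared with class II-negative NK-like cells of their own library. The 2718 genes with at least 50 member UMIs were used, and the genes of the rule were not among them. A gene was called at 2-fold with 10 CPM added, with no test. In both libraries 53 genes were higher (1.95% of genes compared) and 5 lower (0.184%). Counted in the KO library whatever the WT value, 104 (3.83%) were higher and 74 (2.72%) lower. Counted in the WT library in the same way, 76 (2.8%) were higher and 19 (0.699%) lower. These counts include the genes called in both. The median log2 ratio over all genes compared was 0.037 in the KO library and 0.029 in the WT library.

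Genes of dividing cells were among the higher ones. Of 14 cell cycle genes, 10 were past 2-fold higher in both libraries and none lower, with a median log2 ratio of 1.82 in the KO library and 1.64 in the WT library. Hist1h2ap, a histone gene, was at 395 against 32.2 CPM in the KO library and 784 against 153 CPM in the WT library. Rrm2, which makes deoxynucleotides, was at 184 against 8.44 and 123 against 29.4 CPM, and Tyms, thymidylate synthase, at 94.5 against 12.4 and 110 against 24.6 CPM. In the KO library Rrm2 and Tyms lay in 2 members each. Before thinning, the share of members with 10 or more cell cycle UMIs was 9.09% (2 of 22) against 0.913% in the KO library. It was 26.7% (24 of 90) against 3.81% in the WT library.

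That difference moved with depth. Among cells of 10000 or more UMIs, the cell cycle list stood at 3888 CPM in the 4 KO members against 1623 CPM in class II-negative cells of that depth, but KO member 1 held 214 of those UMIs and the other 3 stood at 1812 CPM. In the WT library the list stood at 3658 CPM in the 32 WT members against 2497 CPM. From 5000 to under 10000 UMIs it was 254 against 298 CPM and 456 against 449 CPM. Under 5000 UMIs it was 384 against 269 and 198 against 306 CPM. Without the deepest 3% of barcodes in each library, which leaves 18 KO and 71 WT members, 8 genes rather than 53 were higher in both libraries, and 1 rather than 5 was lower. The summed level of Cd74 was higher in members at every depth. Under 5000 UMIs it was at 1042 against 13.3 CPM in the KO library and 954 against 18.0 CPM in the WT library. In the KO library this rested on few members. KO member 5, with macrophage genes, had 25 Cd74 UMIs, and no other KO member under 5000 UMIs had more than 5. From 5000 to under 10000 UMIs, KO members 2 and 3, with B cell genes, had 86 and 78. No other KO member of that band had more than 1.

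**Figure D3:**
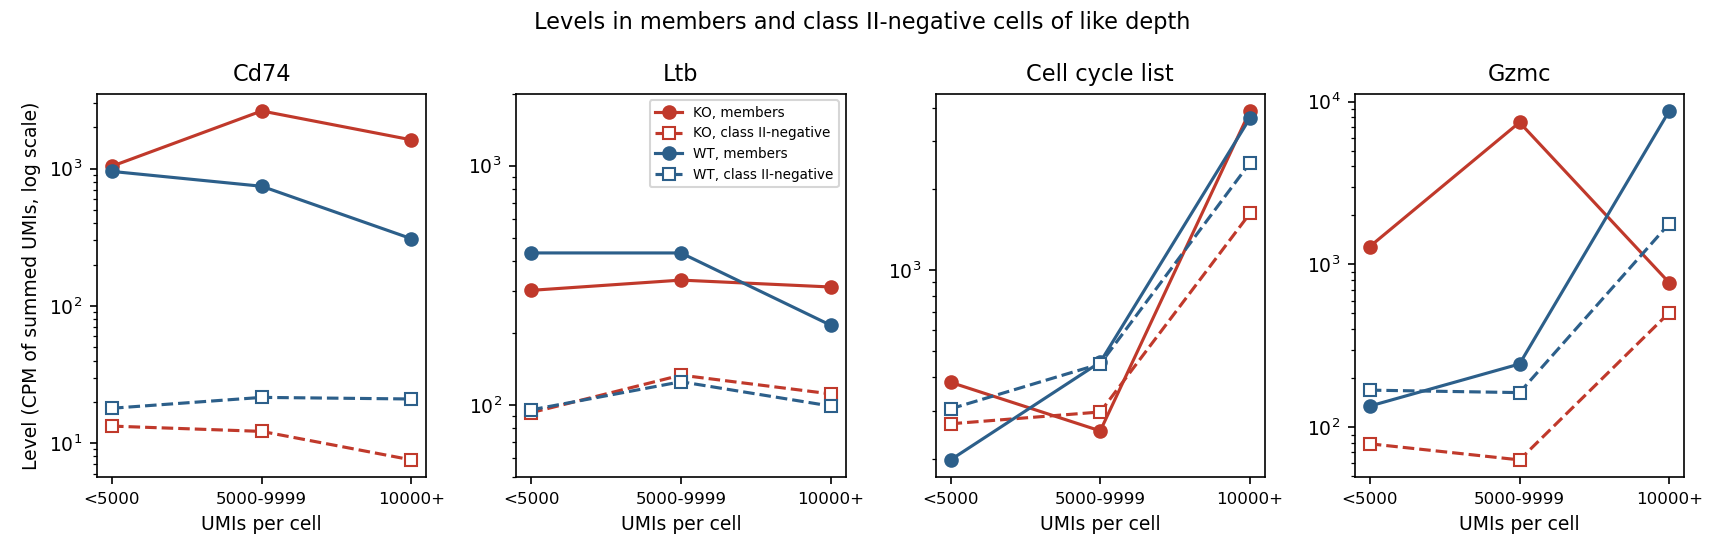
Levels in CPM on a log scale of Cd74, Ltb, the cell cycle list and Gzmc, for members (filled circles, solid lines) and class II-negative NK-like cells (open squares, dashed lines) in 3 bands of UMIs per cell; the number of members per band was 9, 9 and 4 in the KO library and 27, 31 and 32 in the WT library. Cd74 and Ltb lie above the class II-negative cells in every band, the cell cycle list in both libraries only at 10000 or more UMIs, where 1 of the 4 KO members held 214 of its UMIs. Gzmc lies above them in every band except that of WT cells under 5000 UMIs. Below 10000 UMIs most KO Cd74 UMIs lay in KO members 2, 3 and 5, which had B cell or macrophage genes.

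Granzyme genes were high in a few members. Gzmc was at 3225 against 95.7 CPM in the KO library and 5806 against 387 CPM in the WT library. A single KO member held 80.9% of the 580 KO UMIs, and 1 WT member held 39.8% of the 5355 WT UMIs. Before thinning, Gzmc was present in 22.7% of KO members and 21.7% of KO class II-negative cells, and in 58.9% and 43.4% in the WT library. The WT difference moved with depth. WT members were at 135 against 169 CPM under 5000 UMIs, 245 against 163 CPM from 5000 to under 10000, and 8774 against 1783 CPM at 10000 or more. KO members were at 1289 against 79.2, 7465 against 63.05 and 773 against 506 CPM in those bands. Gzmf had 115 UMIs in 1 KO member and 1294 in 28 WT members. The granzymes Gzmc to Gzmg resemble each other in sequence, so UMIs could be split among them.

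Of 13 genes of the innate lymphoid list, Ltb alone had enough UMIs to be compared. It encodes lymphotoxin β and was past 2-fold higher in both libraries, at 317 against 107 CPM and 291 against 108 CPM. It was present in 12 of 22 KO and 55 of 90 WT members. After thinning, 31.8% of KO and 38.9% of WT members had a UMI of it, against 17.8% and 15.7% of class II-negative cells. Before thinning, Il7r, the interleukin 7 receptor, was in 2 KO and 10 WT members, or 11.1% of WT members against 2.94%. Gata3, a transcription factor of that list, was at 44.5 against 64.7 CPM in the KO library and 29.3 against 46.6 CPM in the WT library. Summed, the innate lymphoid list stood at 484 against 257 CPM in the KO library and 409 against 216 CPM in the WT library. Class II barcodes left out for Tmem176 UMIs were higher, at 1492 and 1458 CPM. Of 11 NK maturation genes 8 were compared, with median log2 ratios of -0.30 and -0.41. Thy1, a surface protein of T cells and some NK cells, was the 1 past 2-fold higher in both libraries, at 439 against 138 and 468 against 192 CPM. Klrg1, a receptor of mature NK cells, was at 189 against 120 and 345 against 181 CPM, and Zeb2, a transcription factor of their maturation, at 55.6 against 174 and 114 against 184 CPM. Of 12 activation genes, 7 were compared and 4 were past 2-fold higher in both libraries: Ly6a (117 against 8.16 and 93.3 against 17.8 CPM), the inhibitory receptor genes Havcr2 and Lag3, and Ctla4. In the KO library 67% of Ly6a UMIs and 71% of Lag3 UMIs lay in 1 member.

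NK genes were present at lower levels. The 15 NK identity genes outside the rule had median log2 ratios of -0.45 in the KO library and -0.42 in the WT library, and 2 of them were past 2-fold lower in both. These were Klra4, at 239 against 1280 and 528 against 1322 CPM, and Klra8, at 139 against 889 and 478 against 974 CPM, which encode Ly49 receptors and belong to a family of near copies. Summed, the list stood at 19303 against 28142 CPM and 21742 against 27698 CPM. It was lower in members in each depth band, of under 5000, 5000 to under 10000 and 10000 or more UMIs, by amounts that differed. KO members were at 26403 against 29212, 21523 against 25955 and 14330 against 28834 CPM. WT members were at 24792 against 29388, 23359 against 27260 and 20620 against 23318 CPM. Both NK receptor genes of the rule were found in 17 of 22 KO and 72 of 90 WT members, and 21 and 85 had 2 or more of their UMIs. The list stood at 23933 CPM in KO members with exactly 2 class II UMIs and 13730 CPM in those with 10 or more, and at 27170 and 11424 CPM in the WT library. WT members with 3 to 4 were at 20661 CPM and those with 5 to 9 at 24138 CPM, so there was no even decline. Per cell, its 3 lowest values in the KO library were 3120 CPM in a member with B cell genes, 3859 CPM in KO member 1, the one with 214 cell cycle UMIs, and 4305 CPM in the macrophage-gene member. In the WT library the 3 lowest were 4972 CPM in WT member 4, 6243 CPM in WT member 23 and 6292 CPM in WT member 7. These WT members had no B cell UMI, at most 1 dendritic or macrophage UMI other than Cst3, and 205, 68 and 2 cell cycle UMIs.

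Of 11 cytokine and chemokine genes, 7 were compared, of which 1 was past 2-fold lower and 1, Ltb, higher in both libraries. Ccl3, a chemokine gene of activated NK cells, was at 623 against 2024 CPM in the KO library and 406 against 1335 CPM in the WT library, past 2-fold in both. Ifng was at 384 against 757 and 180 against 370 CPM. The Ifng gap moved with depth, in bands of under 5000, 5000 to under 10000 and 10000 or more UMIs. KO members were at 274 against 891, 761 against 573 and 137 against 280 CPM. WT members were at 396 against 422, 144 against 327 and 153 against 323 CPM. The summed cytokine list was at 19763 against 34127 CPM in the WT library. By band it was at 43859 against 40837, 31297 against 33798 and 11335 against 12562 CPM. In KO members the list was lower in each band. The heat shock gene Hspa1a was at 100.1 against 379 and 501 against 1019 CPM. Interferon-γ is the classical inducer of class II, and its part here was not tested. Of 17 interferon-γ response genes 5 were compared, with median log2 ratios of 0.41 and -0.17. None was past 2-fold higher in both libraries, where 1.95% of all genes compared were. Summed, the list stood at 1112 against 717 CPM in the KO library and 457 against 568 CPM in the WT library. Cxcl10 was at 328 against 28.9 CPM in the KO library, with 79.7% of its UMIs in 1 member, and at 20.6 against 17.9 CPM in the WT library. Class I presentation genes were close to their level elsewhere, with medians of 0.24 and 0.09 over 11 genes.

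**Figure D4:**
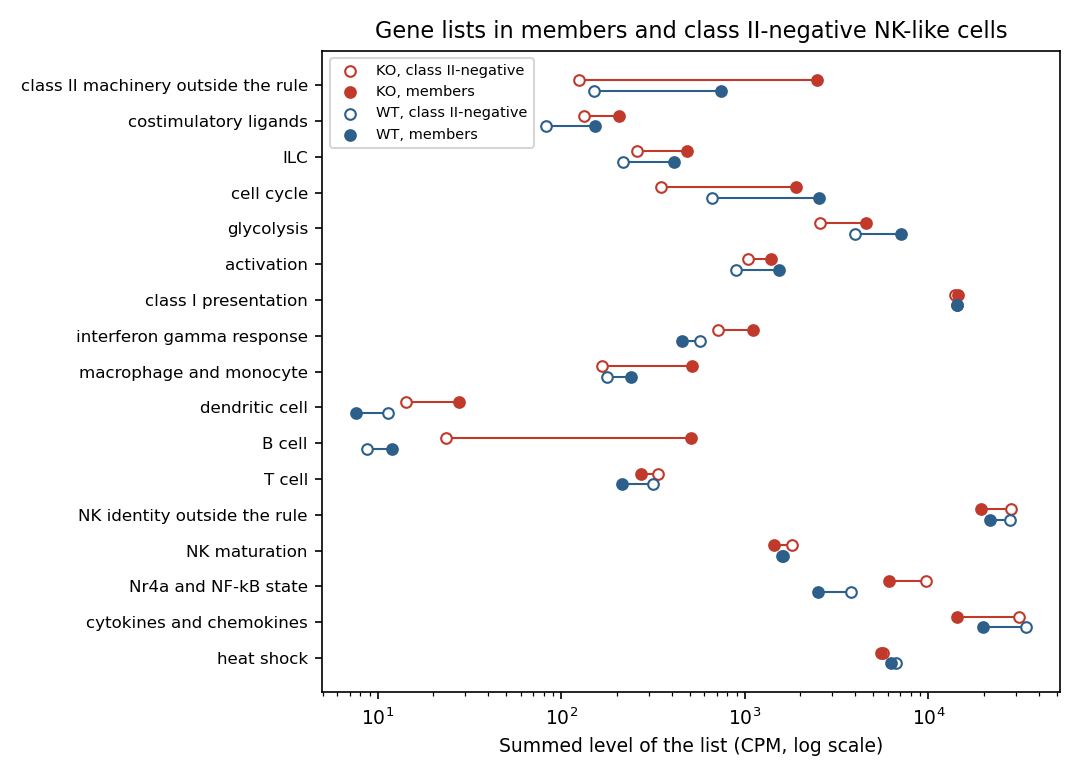
Summed level of each gene list in CPM on a log scale, with open circles for class II-negative NK-like cells and filled circles for members of the same library. Class II machinery (2475 against 125 CPM in the KO library, 738 against 150 in the WT library) and the cell cycle list lie to the right in members of both libraries, the B cell list mainly in the KO library, and the NK identity list to the left in both.

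KO members were also set against WT members. Of the 2718 genes, 62 were past 2-fold higher in KO members (2.28%) and 74 lower (2.72%). The same comparison in class II-negative cells gave 41 (1.51%) and 19 (0.699%). The 2 pairs of counts are not on a like footing. Members were 22 KO and 90 WT cells, of which 4 and 32 had 10000 or more UMIs, and class II-negative cells were 2518 and 2758. Hif1a, the gene deleted in the KO mice, was at 89.0 CPM (50.9 to 145) in KO members, from 16 UMIs, and 58.6 CPM (44 to 76.4) in WT members, from 54 UMIs. In class II-negative cells it was at 58.8 and 55.1 CPM. The labels used here do not state the deleted stretch, and a 3′ tag can lie outside it, so the value checks nothing about the deletion.

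Of the 8 genes with the highest ratio of KO to WT members, 7 were also higher in KO than in WT class II-negative cells. Vegfa, the vessel growth factor, was at 211 CPM in KO and 28.2 CPM in WT members, a log2 ratio of 2.54, and the ratio in class II-negative cells was 2.17. Csrnp1, an early response gene, had 2.28 and 2.10, and Fosl2, a subunit of AP-1, 1.76 and 1.59. Of 12 genes of the Nr4a and NF-κB list, 9 were compared and 6 were past 2-fold higher in KO members, with a median of 1.48 in members and 1.36 in class II-negative cells. Differences seen in members and hardly in the other cells were those of Cxcl10 (3.47 against 0.48), Ikzf2, a transcription factor of the Ikaros family (2.08 against 0.60), and Cd74 (1.92 against -0.40). The 3 KO members with B cell or macrophage genes held 189 of the 334 Cd74 UMIs, and without them KO members stood at 891 CPM and the Cd74 ratio to WT members was 0.86. Whether the members' ratio differs from that of the other cells was not tested.

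Genes lower in KO members were led by granzymes that a few WT members held. Gzme had 1 UMI in KO members and 408 in 11 WT members, a log2 ratio of -4.86, with 56% of the WT UMIs in 1 member. Gzmd had 8 UMIs in 2 KO and 1166 in 24 WT members, a ratio of -4.55. Ifitm1, an interferon-induced membrane gene, had no UMI in KO members and 176 in 12 WT members, 65% of them in 1. Ube2c, of dividing cells, was at 16.7 CPM in KO and 105 CPM in WT members. Each of the 8 lowest genes was also lower in KO than in WT class II-negative cells. The log2 ratios there were -1.34 for Gzme, -0.99 for Gzmd, -2.28 for Ifitm1 and -0.90 for Ube2c. When the rule was applied after thinning, which left 14 KO and 35 WT members, the KO to WT ratios of Gzmd and Gzmg in members turned to 0.85 and 1.37.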

How the data were processed

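UMI counts per gene and barcode were deposited by the authors for 1 KO and 1 WT library, as whole numbers that are not normalized. The submitters' processing notes list Cell Ranger 2.0.2 and Seurat, with mm10 as the build and no role for either tool. The annotation, the calling of cells and any removal of doublets were not given in the sources used here. The tables held 27998 genes, 3110 KO barcodes (13407906 UMIs) and 3574 WT barcodes (19553440 UMIs). The members and the gene lists were chosen with earlier results of these data known. UMIs were summed per library and scaled to CPM, and ratios are log2 with 10 CPM added. Intervals are exact binomial (Clopper-Pearson) or exact Poisson at 95%, which take UMIs as independent and too narrow for genes with most UMIs in few cells. Shares given as thinned were compared after thinning each cell to 2500 UMIs. The other shares are of unthinned counts, and members were deeper than class II-negative cells. No doublet caller was run. An alternative leaves out the deepest 3% of barcodes. Named genes were every gene of the class II, dendritic and macrophage lists, among genes carried by at least 10 members the 12 highest and 12 lowest by the smaller ratio of both libraries, the 8 highest and 8 lowest between KO and WT members, and up to 4 of each other list. Simulated independent Poisson counts gave interval coverage of 96.0% over 2384 genes for KO members and 96.4% over 6668 for WT members. Such counts follow the model that the intervals assume, so this coverage says nothing of genes with most UMIs in few cells. Python 3.11.15, numpy 2.4.6, scipy 1.17.1 and pandas 2.3.3 were used.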

Additional observations from a re-analysis of the deposited data

Results flagged for a closer look

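Gzme, a granzyme gene, went opposite ways in the 2 libraries. Its log2 ratio of members to class II-negative NK-like cells was -1.05 in the KO library, from 1 UMI in members, and 2.47 in the WT library, from 408 UMIs in 11 members. It was listed because both ratios were past 2-fold with opposite signs, and the difference was not tested.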

How the results depend on the processing

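No paired analysis was possible because each genotype had 1 library and the labels carry no replicate numbers. The Cd74 ratio stayed above 0 in both libraries under every alternative run, but in 1 of them, with 2 KO members left, it rests on 1 KO UMI and no KO member had Cd74 after thinning; the cause of each shift was not tested. Settings are compared with shares of cells that were members of 0.717% (KO) and 2.53% (WT), shares with Cd74 of 50% and 41.1%, Cd74 log2 ratios of 6.36 and 4.05, 53 genes higher and 5 lower in both libraries, and 62 genes higher and 74 lower in KO than in WT members. Those named as added were chosen after seeing the data.

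With at least 3 class II UMIs, 0.359% and 1.55% of cells were members, 81.8% of KO members had Cd74, its ratios were 7.16 and 4.43, and 20 genes were lower. With no condition on Tmem176, the shares were 1.40% and 3.26%, the WT Cd74 ratio 4.83, and 14 genes lower. With at least 2 NK receptor UMIs, 3 genes were lower. With the rule applied after thinning, 1.01% of WT cells were members, 57.1% of WT members had Cd74, its ratios were 6.81 and 4.92, 13 genes were higher, and 31 were higher and 24 lower in KO than in WT members, with Gzmd at 0.85 and Gzmg at 1.37 reversed. Without the deepest barcodes, the WT Cd74 ratio was 4.78, 8 genes were higher and 1 lower. With at most 5% mitochondrial UMIs, the mean Gzmf ratio of members turned to -0.094.

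Leaving out every member with a dendritic or macrophage UMI, Cst3 counted, left 2 KO and 25 WT members. Of the KO ones 0% had Cd74 after thinning, the Cd74 ratios were 2.55 and 4.66, 2 genes were higher and 1 lower, and 33 were higher and 47 lower in KO than in WT members. In members against class II-negative cells the mean ratios reversed to -1.46 for Gzmc, -0.52 for Gzmf, -1.77 for Hist1h2ap, -0.10 for Birc5, -0.50 for Cks1b, -0.19 for Tyms, -0.79 for Rrm2 and 0.17 for Sgk1. Between KO and WT members they reversed to -0.77 for Vegfa, -2.18 for Ikzf2, -2.50 for Cd74 and 0.15 for Hspa1a.

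With 1 CPM added, the Cd74 ratios were 7.09 and 4.54 and 11 genes were lower. With the mean of per-cell CPM, the WT ratio was 4.53 and 3 genes were lower. With genes of at least 20 UMIs, 82 were higher and 9 lower, and 159 were higher and 249 lower in KO than in WT members. Unthinned, 57.8% of WT members had Cd74, and 90.9% of KO and 72.2% of WT members had a dendritic or macrophage UMI, against 68.2% and 38.9% thinned.

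Of the added settings, leaving out members with 10 or more B cell UMIs or 10 or more dendritic and macrophage UMIs, Cst3 not counted, gave a KO Cd74 ratio of 5.31 and 8 genes lower. Without the member with the most class II UMIs in each library, the WT ratio was 3.83, 35 genes were higher, and 122 were lower in KO than in WT members. Without Cst3, 31.8% of KO and 7.78% of WT members had a dendritic or macrophage UMI. Without members holding any such UMI other than Cst3, the KO Cd74 ratio was 5.61, 33 genes were higher and 11 lower. With at least 5000 UMIs in every cell, the shares were 1.71% and 4.45%, the WT ratio 3.78, and 3 genes were lower. The 22 KO members limit all KO values.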
